A study of Mus musculus with 34 samples.

Results

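Monocytes sorted from LLC tumors were set against monocytes sorted from the spleens of mice bearing that tumor, in 8 of the 34 mouse libraries of the series, chosen by their titles. LLC, the Lewis lung carcinoma line, is a mouse lung tumor that is commonly grown in mice of the C57BL/6 background. The tumor group held 4 libraries of Ly6C+ CD88+ Sca1- monocytes, a population that the study calls TuMon2, and the spleen group held 4 libraries of Ly6C+ monocytes. All mice were of the strain given as C57/Bl6, and the labels give no age, sex or animal for a library. No CD88 or Sca1 gate is stated for the spleen cells, so tissue and gate cannot be told apart in any difference between the 2 groups. Polyadenylated RNA was measured from cells purified by fluorescence-activated cell sorting, and the question addressed here is how the monocytes of the tumor differed from those of the spleen. Other groups of the series were used only beside this comparison. They were 4 libraries of Ly6C+ CD88+ Sca1+ monocytes from tumors of MC38, a colon adenocarcinoma line, and 4 of Ly6C+ monocytes from the spleens of mice with MC38 tumors. A further group held 4 libraries of macrophages from LLC tumors. From culture came 3 libraries of bone marrow monocytes given LLC supernatant and labelled Ly6C+ CD88+ Sca1-, and 4 libraries of untreated control cells labelled Ly6C+. Supernatant coincides there with the CD88 and Sca1 label, and the 2 cannot be told apart. Since the labels do not say whether replicates came from separate animals, p-values measure only the spread between these samples, which may be technical.

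Monocytes leave the bone marrow for the blood, and the spleen holds a reserve of them that can be mobilized. Classical monocytes, which carry Ly6C, follow the chemokine CCL2 into inflamed tissue and tumors through its receptor CCR2 and can mature there into macrophages, while nonclassical monocytes patrol the inside of blood vessels. Monocytes and macrophages in tumors are known for genes of low oxygen, for arginase 1, and for secreted factors that act on vessels, matrix and T cells.

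The 8 libraries held 13198843 to 23818347 estimated counts and 13475 to 15016 genes with counts. Levels are given in CPM, the count of a gene per fixed size of the library, with library sizes scaled by the trimmed mean of M values. Changes are log2 ratios of tumor over spleen with their standard error (SE), from edgeR's quasi-likelihood test with Benjamini-Hochberg adjustment over the 13200 genes tested, and a gene is said to have risen or fallen where the adjusted p was at most 0.05. The 4 tumor libraries lay close together, whereas the spleen libraries did not. On the first principal component of the LLC libraries, which carried 62.2% of the variance, spleen replicate 3 lay at 84.6, the other 3 spleen libraries between 101.6 and 108.9, and the tumor monocytes between -42.7 and -40.9. Spleen replicate 3 also held more of many transcripts that were abundant in tumor monocytes, and where leaving it out moved the change of a named gene by over 1.5-fold, the log2 change without it is given as well. For a gene with no counts in the other 3 spleen libraries, that value depends on the prior count of the fit and is no bound. Spleen replicates 1 and 4, with 14830426 and 14064246 counts, differed from replicates 2 and 3, with 23818347 and 23763319 counts, in several immediate early and CCAAT-binding factor genes.

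The transcripts of the sorted antigens were examined first, as a check of the labels. C5ar1, which encodes CD88, the receptor for the complement fragment C5a, stood at 594, 586, 599.99 and 595 CPM in the tumor libraries and at 31.9, 35.3, 47.98 and 30.4 CPM in the spleen libraries, a log2 change of 4.03 ± 0.16 (SE; adjusted p = 6.49e-16). The groups were far apart. CD88 was itself gated in the tumor sort, so this gene is a check of the label and not a finding. Ly6a, which encodes Sca1, had 38.9, 29.5, 37.9 and 39.6 CPM in the tumor libraries and 7.82, 11.7, 69.99 and 8.55 CPM in the spleen libraries. Spleen replicate 3 lay above every tumor library, the other 3 spleen libraries below, and the log2 change was 0.55 ± 0.53 (SE; adjusted p = 0.384). Without that library it was 1.95 ± 0.33 (SE; adjusted p = 5.35e-05). Ly6c2, the gene of the Ly6C antigen together with its near-identical neighbor Ly6c1, had 896, 892, 959 and 935 CPM in tumor and 601, 674, 811 and 614 CPM in spleen. Its groups did not overlap, but the log2 change of 0.45 ± 0.21 (SE; adjusted p = 0.065) did not pass the test. It passed without spleen replicate 3, at 0.55 ± 0.22 (SE; adjusted p = 0.0398), and also with DESeq2 (adjusted p = 0.0149), with the size factors of relative log expression (adjusted p = 0.04002) and in a fit of the 8 libraries alone (adjusted p = 5.46e-05). Ly6c1 changed by 0.59 ± 0.32 (SE; adjusted p = 0.12), which passed in the fit of the 8 libraries alone (adjusted p = 0.00621), and reads shared between Ly6c1 and Ly6c2 make the split between them uncertain.

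Of the 13200 genes tested, 8263 were called (62.6%), of which 3775 rose in tumor monocytes (28.6% of those tested) and 4488 fell (34.0%). The median log2 change of all genes was -0.05. Every tumor library lay above every spleen library for 3707 genes (28.1%), and below for 4247 (32.2%). These shares are the background against which the counts of each gene list are read. In bulk RNA, fewer cells of a type and less RNA per cell cannot be told apart, and this holds for every gene described here. Counts of the lists by direction are drawn in the plot of called members by list. Scaling moved the balance of the calls. With library totals alone 68.6% of the genes were called, 19.1% higher and 49.4% lower, so that 27.9% of the called genes were higher, against 45.7% with the trimmed mean, and the median of all genes shifted to -0.33. Without spleen replicate 3, 55.8% of 14044 tested genes were called, 3624 of them higher (25.8%) and 4210 lower (30.0%).

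**Figure D1:**
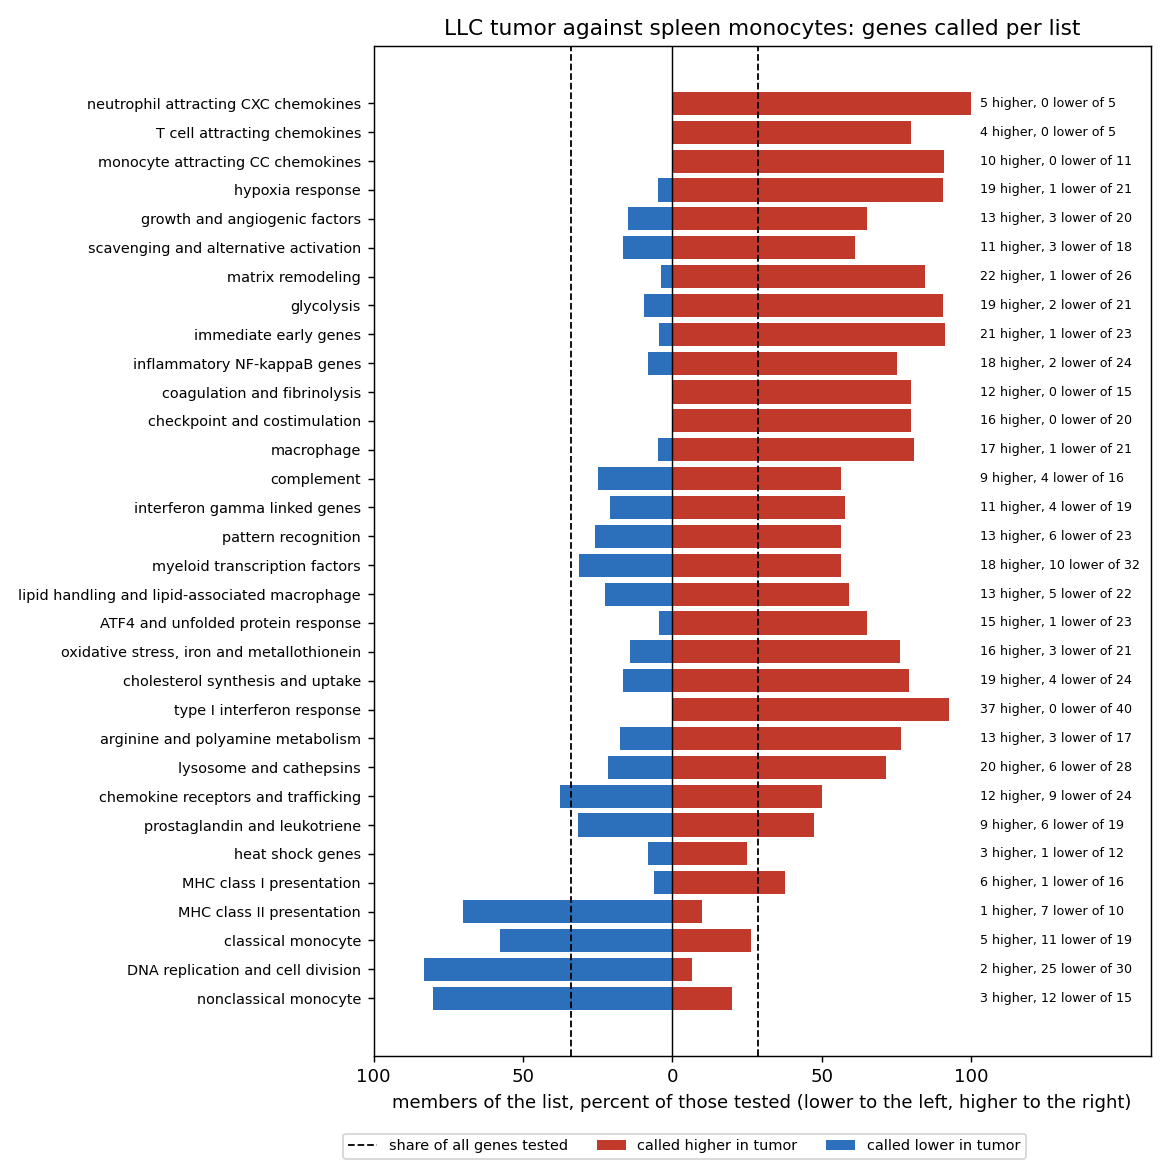
For each gene list, the percentage of its tested members that rose (bars to the right) and fell (bars to the left) in LLC tumor monocytes relative to LLC spleen monocytes (4 libraries each, adjusted p at most 0.05). The dashed lines mark the shares over all 13200 genes, 28.6% higher and 34.0% lower; for the type I interferon list 37 of 40 genes lie to the right, and for DNA replication and cell division 25 of 30 lie to the left.

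The 15 largest increases, among genes of at least 10 CPM in 1 of the groups, held 6 chemokines of the CXC family besides Arg1 and Spp1, all but Cxcl14 described with their lists. Pdpn, podoplanin, a mucin-like membrane protein that binds the platelet receptor CLEC-2, had 139, 146, 134 and 128 CPM in tumor and 0.129, 0.0409, 2.27 and 0.0668 CPM in spleen (log2 change 7.54 ± 0.61 SE, adjusted p = 2.03e-09, a change of 10.75 without spleen replicate 3). Ak4, a mitochondrial adenylate kinase, changed by 7.32 ± 0.57 (SE; adjusted p = 2.66e-10, a change of 8.19 without spleen replicate 3), and Snai1, a transcription factor known from epithelial-mesenchymal transition, by 7.11 ± 0.58 (SE; adjusted p = 4.33e-10, a change of 8.96 without spleen replicate 3). Flrt2, a membrane protein of cell adhesion, had 18.6, 28.7, 17.3 and 36.4 CPM in tumor and 0, 0, 0.371 and 0 CPM in spleen, with all spleen counts in replicate 3 (log2 change 7.74 ± 0.87 SE, adjusted p = 2.14e-07, a change of 11.95 without spleen replicate 3). Gja1, the gap junction protein connexin 43, had 12.1, 23.4, 12.6 and 19.5 CPM in tumor and only 3 counts in the spleen libraries together, all in replicate 3, a ratio with a 95% counting interval of 161 to 2292. Cxcl14, a chemokine, had 13.9, 9.46, 13.3 and 7.04 CPM in tumor and 2 counts in spleen, with an interval of 114 to 3415. Raet1d, a ligand of the NK cell receptor NKG2D, shares reads with near-identical relatives, so its change of 8.16 ± 0.38 (SE; adjusted p = 2.57e-13, a change of 12.51 without spleen replicate 3) is uncertain. Among the 15 largest decreases that are not described with a list, Ddr1, a collagen receptor, had 0.176, 0.3103, 0.5298 and 0.515 CPM in tumor and 15.1, 12.7, 16.1 and 17.8 CPM in spleen (log2 change -5.28 ± 0.30 SE, adjusted p = 1.63e-13). Cadm3, an adhesion molecule, changed by -6.65 ± 0.51 (SE; adjusted p = 3.46e-11, a change of -7.33 without tumor replicate 1). Itgb2l, an integrin beta chain of neutrophils, had 0 counts in tumor and was at least 438-fold lower there, against a floor of 3 counts over the tumor group.

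Arg1 was nearly absent from spleen monocytes and abundant in tumor monocytes. Arginase 1, which splits arginine into ornithine and urea and so draws arginine away from T cells, had 1228, 1428, 1159 and 2359.8 CPM of Arg1 in the tumor libraries (chromosome 10, 24915207 to 24927470, GRCm38) and 1.098, 0.245, 8.903 and 0.601 CPM in the spleen libraries. The highest spleen library was replicate 3 and lay far below every tumor library, and the log2 change was 9.06 ± 0.92 (SE; adjusted p = 6.51e-08), or 11.32 without it. Arg2, the mitochondrial arginase, had 32.4, 34.7, 35.04 and 41.4 CPM in tumor and 2.71, 2.62, 4.04 and 2.54 CPM in spleen, a change of 3.57 ± 0.20 (SE; adjusted p = 1.21e-13). Nos2, the inducible nitric oxide synthase, which uses the same substrate, had 27.7, 56.2, 27.2 and 47.7 CPM in tumor and 0, 0, 4.41 and 0 CPM in spleen. Counts of Nos2 in spleen came from replicate 3 alone, and the log2 change was 4.95 ± 0.70 (SE; adjusted p = 4.95e-06, a change of 12.61 without spleen replicate 3). The arginine transporter Slc7a2 had 21.6 to 41.1 CPM in tumor and 0.8399 to 1.34 CPM in spleen and rose by 4.82 ± 0.34 (SE) on the log2 scale.

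Ornithine feeds the polyamines, and most of that pathway rose as well. Odc1, ornithine decarboxylase, had 338, 295, 394 and 311 CPM in tumor and 12.7, 12.8, 30.7 and 13.3 CPM in spleen (log2 change 4.26 ± 0.28 SE, adjusted p = 4.84e-11). Smox, spermine oxidase, had 601, 596, 642 and 716 CPM in tumor and 58.8, 61.2, 79.2 and 56.8 CPM in spleen, a change of 3.32 ± 0.10 (SE; adjusted p = 1.21e-18). Both genes were separated between the groups in every library. Azin1, which protects ornithine decarboxylase from its antizyme, rose by 1.25 ± 0.11 (SE), and Ass1, which rebuilds arginine from citrulline, by 3.21 ± 0.48 (SE). Sat1, which acetylates spermidine and spermine for export, fell by 0.64 ± 0.11 (SE). Of the 17 genes of arginine and polyamine metabolism, 13 rose and 3 fell, with a median of 0.86. Amd1, S-adenosylmethionine decarboxylase, was listed at 1.14, 1.14, 1.36 and 0.973 CPM in tumor and 49.9, 50.4, 48.5 and 45.4 CPM in spleen, but it has a near-identical copy, Amd2, so its change of -5.40 ± 0.96 (SE; adjusted p = 7.11e-05) is uncertain.

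**Figure D2:**
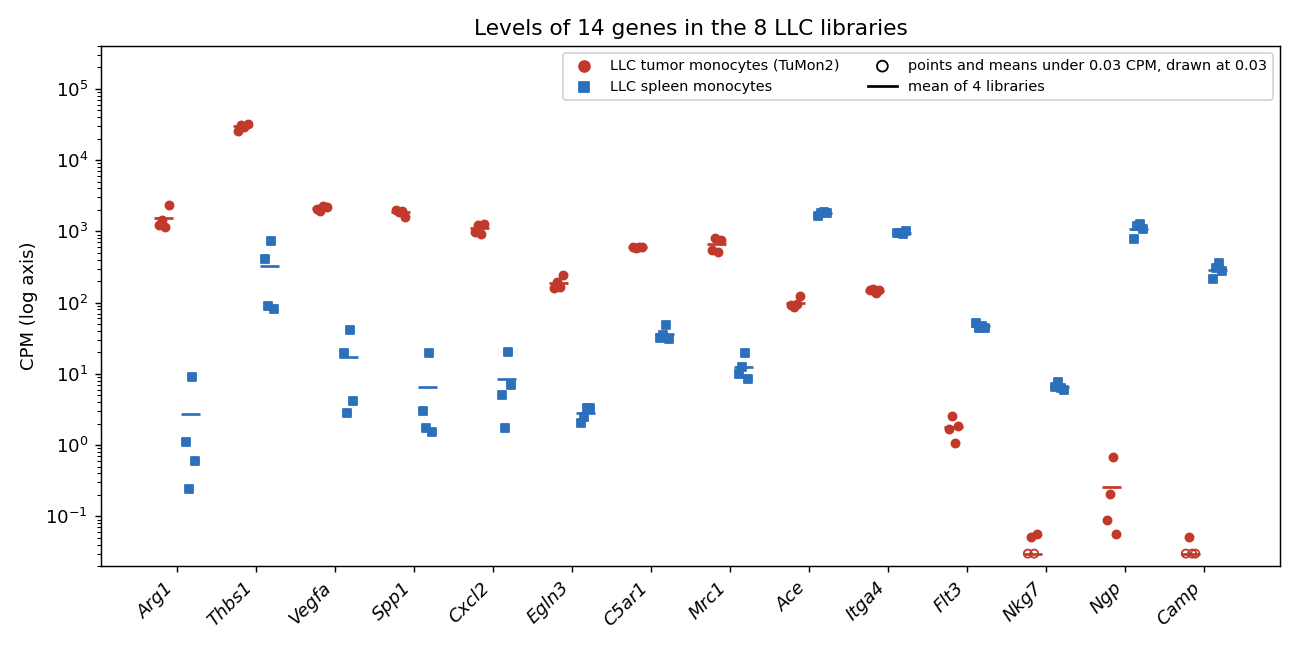
Levels of 14 genes in each of the 4 LLC tumor monocyte libraries and the 4 LLC spleen monocyte libraries, in CPM on a log axis; each point is a library, lines are means of 4 libraries, and open points are values under 0.03 CPM, drawn at 0.03. Arg1, Thbs1, Vegfa, Spp1, Cxcl2, Egln3, C5ar1 and Mrc1 lie higher in every tumor library, and Ace, Itga4, Flt3, Nkg7, Ngp and Camp lie lower in every tumor library.

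Genes that cells induce at low oxygen rose almost without exception. Cells sense oxygen through prolyl hydroxylases, which mark hypoxia-inducible factor (HIF) for destruction, and HIF binds a short motif, ACGTG or GCGTG, at the genes it induces. Of 21 hypoxia genes tested, 19 rose and 1 fell, with a median log2 change of 2.87. Bnip3l, a mitophagy receptor, was the member that fell (-0.66 ± 0.08 SE, adjusted p = 2.23e-07). Egln3, a prolyl hydroxylase that HIF itself induces, had 161, 197, 166 and 240.3 CPM in tumor (chromosome 12, 54178981 to 54203874) and 2.07, 2.496, 3.297 and 3.34 CPM in spleen. No tumor library came near the highest spleen library, and the log2 change was 6.09 ± 0.23 (SE; adjusted p = 1.57e-15). Vegfa, the main growth factor of blood vessels, had 2048, 1956, 2267 and 2205 CPM in tumor (chromosome 17, 46016993 to 46032377) and 19.3, 2.86, 41.8 and 4.14 CPM in spleen. Its spleen values were uneven, the highest in replicates 1 and 3, and still lay far below the tumor values (log2 change 6.95 ± 0.76 SE, adjusted p = 1.83e-07, a change of 7.95 without spleen replicate 3). Hilpda, which blocks the breakdown of lipid droplets, had 262, 270.03, 268 and 304 CPM in tumor and 2.58, 2.13, 8.78 and 1.54 CPM in spleen (log2 change 6.13 ± 0.45 SE, adjusted p = 5.17e-10, a change of 7.04 without spleen replicate 3). Bnip3, a further mitophagy receptor, rose by 4.23 ± 0.41 (SE), Ankrd37 by 4.55 ± 0.20 and Pdk1, which turns pyruvate away from the mitochondria, by 2.19 ± 0.09. Hif1a itself had 634 to 845 CPM in tumor and 94.6 to 125 CPM in spleen, a change of 2.79 ± 0.14 (SE; adjusted p = 8.52e-15). Car9, a carbonic anhydrase, did not pass the test (0.23 ± 0.15 SE, adjusted p = 0.172), at 3.26 to 3.67 CPM in tumor and 2.67 to 3.36 CPM in spleen.

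Genes of glycolysis rose from the uptake of glucose to the export of lactate, with 19 of 21 higher and 2 lower and a median of 2.01. Slc2a1, the glucose transporter GLUT1, had 685, 748, 731 and 865 CPM in tumor and 32.1, 31.7, 50.9 and 23.3 CPM in spleen, a log2 change of 4.45 ± 0.19 (SE; adjusted p = 3.93e-15). Hk2, which traps glucose by phosphorylation, changed by 1.52 ± 0.06 (SE; adjusted p = 4.95e-16), and Pfkl, the liver-type phosphofructokinase that commits sugar to the path, by 2.82 ± 0.13 (SE; adjusted p = 3.02e-15). Gapdh, widely used as an unchanging control, had 5096, 5238, 5249 and 5727 CPM in tumor and 1079, 1228, 1276 and 992 CPM in spleen (log2 change 2.22 ± 0.08 SE, adjusted p = 5.7e-17). Pgam1, Tpi1 and Pkm changed by 2.23, 3.17 and 1.998. Ldha, which turns pyruvate into lactate, had 1431, 1448, 1474 and 1629 CPM in tumor and 258, 308, 329 and 235 CPM in spleen (log2 change 2.40 ± 0.11 SE, adjusted p = 1.64e-15), and Slc16a3, which exports lactate, rose by 2.505 ± 0.12 (SE). The muscle-type phosphofructokinase Pfkm and the regulatory enzyme Pfkfb4 were the members that fell, with log2 changes of -0.81 ± 0.21 and -0.32 ± 0.10 (SE). No library of either group overlapped the other for any of the 21 genes.

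The 250 bases before the start site of 4 of these genes are printed because they hold the HIF motif several times or in a pair. They come from RefSeq on GRCm38.p6 and run 5′ to 3′ on the strand of the gene. Capitals mark ACGTG or GCGTG on this strand and their complements CACGT and CACGC, where neighboring or overlapping matches join into one run.
Ankrd37: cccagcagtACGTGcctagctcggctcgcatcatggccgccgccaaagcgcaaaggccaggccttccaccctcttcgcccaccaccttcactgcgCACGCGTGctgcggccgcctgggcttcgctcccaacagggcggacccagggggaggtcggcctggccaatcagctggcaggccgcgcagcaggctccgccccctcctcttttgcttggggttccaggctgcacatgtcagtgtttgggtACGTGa
Bnip3: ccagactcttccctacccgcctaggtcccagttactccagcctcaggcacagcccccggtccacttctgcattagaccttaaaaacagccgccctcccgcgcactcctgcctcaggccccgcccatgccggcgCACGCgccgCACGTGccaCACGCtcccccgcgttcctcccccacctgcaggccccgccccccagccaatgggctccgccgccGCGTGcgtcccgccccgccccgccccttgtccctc
Ldha: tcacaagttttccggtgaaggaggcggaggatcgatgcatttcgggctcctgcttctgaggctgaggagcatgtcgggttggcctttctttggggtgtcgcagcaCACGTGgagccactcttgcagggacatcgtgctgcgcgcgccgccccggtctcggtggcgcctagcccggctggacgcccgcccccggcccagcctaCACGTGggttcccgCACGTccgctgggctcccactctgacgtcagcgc
Pgk1: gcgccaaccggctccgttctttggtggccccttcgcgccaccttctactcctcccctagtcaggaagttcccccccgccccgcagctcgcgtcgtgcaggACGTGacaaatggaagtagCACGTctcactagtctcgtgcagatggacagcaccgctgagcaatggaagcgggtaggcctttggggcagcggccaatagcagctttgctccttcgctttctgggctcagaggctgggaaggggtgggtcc
The Ankrd37 stretch is chr8:45999851-46000100 on the minus strand with 4 matches, and that of Bnip3 is chr7:138909507-138909756 on the minus strand with 5. The Ldha stretch, chr7:46845554-46845803 on the plus strand, also has 5 matches, which include 2 copies of CACGTG, a palindrome that counts on both strands. The Pgk1 stretch, chrX:106186850-106187099 on the plus strand, has 2 matches that face each other. Over the windows of RefSeq start sites, at least 1 match on either strand was present for 16 of the 17 hypoxia genes that rose and had a sequence (94.1%), and for 16 of 18 such glycolysis genes (88.9%). Among all 27025 genes with a sequence the share was 41.5%, among the immediate early genes that rose 77.8% (14 of 18), and among the risen genes of the inflammatory NF-kappaB list 60.0% (9 of 15). The hypoxia list was drawn up from genes known to be induced at low oxygen, so its high share came with the choice of the list. It is no result of these data, and the same may hold in part for the glycolysis list. The share over all genes was not limited to the genes tested. The motif has 5 bases and is frequent in promoters rich in G and C. A match is therefore a description of these windows and does not show that HIF was bound.

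Transcripts of chemokines that attract other leukocytes were among the most increased. Of 11 CC chemokines listed as attracting monocytes, 10 rose and none fell, with a median of 3.24. With DESeq2 7 rose and none fell. The list also holds the eotaxin Ccl24 and the CCR4 ligand Ccl17, so it is not one of monocyte attractants alone. Ccl2, the ligand of CCR2, had 402, 454, 397 and 529 CPM in tumor (chromosome 11, 82035577 to 82037452) and 5.56, 2.54, 25.5 and 3.34 CPM in spleen. Spleen replicate 3 was the highest of its group and lay below every tumor library, and the log2 change was 5.56 ± 0.67 (SE; adjusted p = 7.04e-07, a change of 6.90 without spleen replicate 3). Ccl7, a second CCR2 ligand, had 141, 135, 126 and 168 CPM in tumor and 0.323, 0.0818, 16.3 and 0.2004 CPM in spleen (log2 change 4.97 ± 0.96 SE, adjusted p = 0.000176, a change of 9.55 without spleen replicate 3). Ccl3, which acts on CCR1, changed by 3.23 ± 0.31 (SE; adjusted p = 1.86e-08) and Ccl24, an eotaxin, by 6.72 ± 0.78 (SE; adjusted p = 3.94e-07, a change of 5.97 without tumor replicate 4). Ccl24 was uneven within the tumor group, at 38.998, 41.7, 37.6 and 143 CPM, with replicate 4 the highest. Ccl6 and Ccl9 were already abundant in spleen, at 606 to 658 and 455 to 481 CPM, and rose by 1.36 ± 0.15 and 1.89 ± 0.09 (SE). Ccl17, a ligand of CCR4, was near the floor in both groups and did not pass the test (1.16 ± 0.87 SE, adjusted p = 0.256, a change of 0.52 without tumor replicate 3). Without spleen replicate 3 the list kept 10 members called higher, with a median of 5.46.

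The list of CXC chemokines that attract neutrophils, mostly through CXCR2, summed to 1179 to 1833 CPM in tumor and 1.8001 to 22.2 CPM in spleen. The list and its sum include Pf4, which is not a ligand of CXCR2. Cxcl2 stood at 966, 1242, 923 and 1286 CPM in tumor (chromosome 5, 90903899 to 90905938) and at 5.104, 1.72, 20.3 and 7.01 CPM in spleen, a log2 change of 6.995 ± 0.77 (SE; adjusted p = 1.88e-07, a change of 7.96 without spleen replicate 3). Cxcl3 had 129, 226, 109 and 309.7 CPM in tumor and 0.323, 0.0409, 0.412 and 0 CPM in spleen (log2 change 9.86 ± 0.66 SE, adjusted p = 1.2e-10, a change of 10.71 without spleen replicate 3). Cxcl1 had 21.8, 24.7, 20.6 and 25.5 CPM in tumor and 0, 0, 0.453 and 0 CPM in spleen, with all spleen counts in replicate 3 (log2 change 7.34 ± 0.43 SE, adjusted p = 2.12e-12, a change of 11.82 without spleen replicate 3). Ppbp, platelet basic protein, had the largest fitted increase of all named genes, at 36.97, 49.96, 28.5 and 79.9 CPM in tumor (chromosome 5, 90768518 to 90770063) and 0.129, 0, 0.0412 and 0 CPM in spleen. Its spleen libraries together held 3 counts, so the ratio carries a 95% counting interval of 464 to 6590, which covers counting error only. Pf4, platelet factor 4, had 112, 109.9, 97.7 and 131 CPM in tumor and 0, 0.0409, 0.989 and 0 CPM in spleen (log2 change 8.47 ± 0.62 SE, adjusted p = 5.19e-10, a change of 12.16 without spleen replicate 3). Other platelet genes of the marker list did not rise. Itga2b had 0.229 to 0.672 CPM in tumor and 0.258 to 0.90003 CPM in spleen, and Gp9 was at 0 in every tumor library. All 5 tested members of the neutrophil-attracting list, Pf4 among them, rose, and Cxcl5 was not tested for lack of counts. Chemokines that attract T cells through CXCR3 or CXCR6 rose in 4 of 5 cases. Among them Cxcl10 had 725, 591, 730.03 and 728 CPM in tumor and 31.3, 21.3, 129.9 and 23.9 CPM in spleen (log2 change 3.74 ± 0.49 SE, adjusted p = 1.66e-06, a change of 4.77 without spleen replicate 3), and Cxcl16 changed by 3.30 ± 0.40 (SE; adjusted p = 5.99e-07, a change of 3.98 without spleen replicate 3). Ccl5 did not pass the test, at 21.3, 18.3, 24.6 and 16.5 CPM in tumor and 12.1, 16.4, 18.8 and 12.4 CPM in spleen (0.41 ± 0.23 SE, adjusted p = 0.132).

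Of 24 genes of chemokine receptors and trafficking, 12 rose and 9 fell, against 28.6% and 34.0% of all genes. Ccr2 rose by 0.60 ± 0.12 (SE), at 1499 to 1746 CPM in tumor and 970.2 to 1125 CPM in spleen. Ccr1 had 643, 778, 619.6 and 803 CPM in tumor and 28.9, 22.7, 56.01 and 20.4 CPM in spleen (log2 change 4.47 ± 0.30 SE, adjusted p = 7.45e-11), and Cxcr4, the receptor that holds cells in CXCL12-rich tissue, changed by 3.002 ± 0.14 (SE; adjusted p = 5.07e-15). Integrin genes moved in both directions. Itga4, the alpha chain of VLA-4, which binds VCAM-1 on vessel walls, had 149, 154, 137 and 151 CPM in tumor (chromosome 2, 79255426 to 79333114) and 934, 940.4, 914 and 996 CPM in spleen (log2 change -2.68 ± 0.16 SE, adjusted p = 5.3e-13). Itgal, the alpha chain of LFA-1, had 288, 297, 297 and 312 CPM in tumor and 1932, 2345, 2161 and 1933 CPM in spleen (log2 change -2.81 ± 0.12 SE, adjusted p = 4.6e-16). Both were lower in every tumor library. Itgb3 and Itgb7 also fell, with log2 changes of -3.54 ± 0.18 and -0.57 ± 0.11 (SE), whereas Itga5 and Itgb5 rose by 1.41 ± 0.08 and 1.36 ± 0.09 (SE). The sphingosine receptor S1pr4 fell by 3.52 ± 0.19 (SE).

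Inflammatory genes that NF-kappaB, the main transcription factor of inflammation, is known to drive rose in 18 of 24 cases and fell in 2 (median 1.97). With DESeq2 16 rose and 2 fell. Il1b, the pro-form of interleukin 1 beta, had 5193, 4863, 5673 and 4788 CPM in tumor (chromosome 2, 129364569 to 129371164) and 134, 114, 409 and 90.7 CPM in spleen. Spleen replicate 3 was the highest of its group, and the log2 change was 4.78 ± 0.44 (SE; adjusted p = 1.19e-08, a change of 5.51 without spleen replicate 3). Ptgs2, cyclooxygenase 2, the first enzyme of prostaglandin synthesis, had 1616, 2030.1, 1764 and 1981 CPM in tumor and 19.3, 4.99, 50.5 and 11.8 CPM in spleen (log2 change 6.41 ± 0.81 SE, adjusted p = 1.3e-06, a change of 7.29 without spleen replicate 3). Lif, a cytokine of the interleukin 6 family, had 61.01, 61.8, 66.99 and 62.4 CPM in tumor and 2.52, 2.62, 3.87 and 4.74 CPM in spleen (log2 change 4.20 ± 0.20 SE, adjusted p = 4.24e-15). Genes that restrain the pathway rose too, with Tnfaip3, which encodes the deubiquitinase A20, at 2.27 ± 0.13 (SE; adjusted p = 1.2e-13) and Nfkbia, which encodes the inhibitor IkappaB-alpha, at 1.93 ± 0.13 (SE; adjusted p = 2.85e-12). The subunit genes Nfkb1 and Nfkb2 fell, with log2 changes of -0.64 ± 0.08 and -0.30 ± 0.08 (SE). Of 19 genes of prostaglandin and leukotriene metabolism, 9 rose and 6 fell, or 7 and 8 with library totals alone. Hpgd, which inactivates prostaglandins, fell with 4.14, 2.38, 5.07 and 3.43 CPM in tumor and 126, 138, 116 and 146 CPM in spleen (log2 change -5.16 ± 0.24 SE, adjusted p = 5.66e-14).

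Immediate early genes, which cells switch on within minutes of a stimulus, rose in 21 of 23 cases (median 1.97). Fosl2 had 1612, 1601, 1728 and 1531 CPM in tumor and 167, 152, 209 and 161 CPM in spleen (log2 change 3.23 ± 0.12 SE, adjusted p = 6.43e-17), and Atf3, a repressor induced by stress, had 1624, 1618, 1895 and 1878 CPM in tumor and 103, 89.5, 148 and 192 CPM in spleen (log2 change 3.72 ± 0.20 SE, adjusted p = 6.19e-13). Every tumor library was above every spleen library for both. Fosl1 and Zfp36, which encodes a protein that destabilizes cytokine mRNA, rose by 6.44 ± 0.39 and 2.26 ± 0.15 (SE), and Fosl1 by 7.20 without spleen replicate 3. Klf2 fell, with 134, 114, 139 and 142 CPM in tumor and 446, 237, 237 and 395 CPM in spleen (log2 change -1.31 ± 0.17 SE, adjusted p = 4.53e-07). In spleen, Klf2, Junb and Jund were higher in replicates 1 and 4 than in replicates 2 and 3; Junb had 381, 216, 273 and 587 CPM there, against 2125 to 2459.8 CPM in tumor. Spleen replicates 1 and 4 also had the smaller library totals, and the part of this split in the result was not tested. Heat shock genes, which respond to protein damage, did not move as a group, with 3 of 12 higher and 1 lower, or 2 and 4 with library totals alone. Hsp90aa1 rose by 1.30 ± 0.12 (SE), and Hspe1 fell by 0.38 ± 0.09 (SE).

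The gene list for ATF4 and the unfolded protein response, which answer to missing amino acids and to misfolded protein, had 15 of 23 members higher and 1 lower (median 1.01). Atf4 had 462, 426, 537 and 460.2 CPM in tumor and 137, 119, 143 and 145 CPM in spleen (log2 change 1.79 ± 0.09 SE, adjusted p = 1.13e-14). Slc3a2, the shared chain of several amino acid transporters, had 539, 505, 609 and 527 CPM in tumor and 53.8, 49.7, 78.8 and 46.8 CPM in spleen (log2 change 3.25 ± 0.13 SE, adjusted p = 3.1e-16). Herpud1, a factor in the disposal of misfolded proteins, was the member that fell (-1.44 ± 0.09 SE, adjusted p = 2.24e-12). Among 21 genes of oxidative stress, iron and metallothionein, 16 rose and 3 fell. Slc7a11, which imports cystine for glutathione, had 91.02, 94.9, 89.01 and 95.8 CPM in tumor and 4.65, 4.34, 5.81 and 4.34 CPM in spleen (log2 change 4.27 ± 0.20 SE, adjusted p = 1.97e-14), and Fth1, the ferritin heavy chain, changed by 2.35 ± 0.10 (SE; adjusted p = 3.09e-16). Mt1, a metallothionein, had 38.5 to 72.1 CPM in tumor and 3.34 to 6.18 CPM in spleen (log2 change 3.54 ± 0.501 SE, adjusted p = 4.79e-06). G6pdx, the first enzyme of the pentose phosphate path, fell by 1.59 ± 0.09 (SE).

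Genes that build and cut the extracellular matrix rose in 22 of 26 cases, with 1 lower and a median of 2.53. Thbs1, thrombospondin 1, a matrix protein that binds CD47 and activates TGF-beta, reached the highest CPM of the genes named here. It stood at 25986, 31399.8, 28902 and 32422 CPM in tumor (chromosome 2, 118111876 to 118127133) and at 412, 90.8, 729.7 and 80.1 CPM in spleen, with spleen replicates 1 and 3 above replicates 2 and 4, and changed by 6.499 ± 0.68 (SE; adjusted p = 8.68e-08, a change of 7.26 without spleen replicate 3). Spp1, osteopontin, had 1974, 1883, 1951 and 1598 CPM in tumor (chromosome 5, 104435111 to 104441053) and 3.04, 1.76, 19.9 and 1.54 CPM in spleen (log2 change 8.09 ± 0.93 SE, adjusted p = 3.55e-07, a change of 9.79 without spleen replicate 3). Fn1, fibronectin, had 11273, 11764, 11942 and 9094 CPM in tumor and 4283, 4164, 3681 and 3762 CPM in spleen (log2 change 1.47 ± 0.11 SE, adjusted p = 3.69e-11). Tgfbi, a matrix protein induced by TGF-beta, changed by 1.97 ± 0.09 (SE; adjusted p = 3.45e-15) at 7293 to 8529 CPM in tumor and 1714 to 2411 CPM in spleen. Among proteases, Mmp14 had 437, 396, 432 and 309 CPM in tumor and 7.24, 7.85, 31.6 and 6.41 CPM in spleen (log2 change 4.87 ± 0.43 SE, adjusted p = 8.36e-09, a change of 5.77 without spleen replicate 3), and Mmp12, macrophage elastase, changed by 5.497 ± 0.53 (SE; adjusted p = 2.79e-08, a change of 7.17 without spleen replicate 3). Mmp19 and Adam8 rose by 2.78 ± 0.17 and 5.57 ± 0.35 (SE). Mmp8, the collagenase of neutrophils, was the member that fell (-0.60 ± 0.22 SE, adjusted p = 0.0253), a call that was lost without tumor replicate 1 or 3 or spleen replicate 2 or 3 (adjusted p = 0.0566 to 0.0834).

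Clotting and fibrinolysis genes rose in 12 of 15 cases, while the other 3 did not pass the test (median 1.95). F3, tissue factor, the trigger of clotting, was low but separated, at 7.04, 6.72, 5.75 and 9.04 CPM in tumor and 0, 0.0818, 0.247 and 0 CPM in spleen (log2 change 6.09 ± 0.82 SE, adjusted p = 1.36e-06, a change of 7.41 without spleen replicate 3). F10 had 733, 744, 764 and 962 CPM in tumor and 210.2, 214, 225 and 182 CPM in spleen (log2 change 1.95 ± 0.17 SE, adjusted p = 1.04e-09), and F7 changed by 3.75 ± 0.27 (SE; adjusted p = 4.06e-11). Plaur, the urokinase receptor, had 614, 557, 646 and 627 CPM in tumor and 155, 159.7, 178 and 158 CPM in spleen (log2 change 1.91 ± 0.11 SE, adjusted p = 1.94e-13); its ligand Plau and the inhibitor Serpinb2 rose by 3.71 and 4.01. Growth and angiogenic factors rose in 13 of 20 tested cases and fell in 3 (median 2.84). Areg and Hbegf, ligands of the epidermal growth factor receptor, had 26.997 to 38.5 and 9.57 to 14.02 CPM in tumor, against 0.0818 to 0.711 and 0 to 0.401 CPM in spleen, and rose by 6.45 ± 0.39 and 5.79 ± 0.45 (SE). The neuropilins moved apart, with Nrp1 at 42.6, 36.3, 41.4 and 38.05 CPM in tumor and 159, 143, 149.9 and 143 CPM in spleen (log2 change -1.91 ± 0.10 SE, adjusted p = 2.15e-14) and Nrp2 changing by 2.03 ± 0.11 (SE; adjusted p = 3.81e-14).

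Cholesterol synthesis and uptake, a pathway that SREBP2 switches on when sterols are scarce, rose in 19 of 24 genes and fell in 4 (median 0.92). Sqle, squalene epoxidase, had 62.1, 59.4, 62.9 and 58.5 CPM in tumor and 14.6, 18.7, 17.1 and 17.2 CPM in spleen (log2 change 1.84 ± 0.09 SE, adjusted p = 9.25e-15). The groups did not overlap for this gene. Insig1, Cyp51 and Fdft1 rose by 1.88, 1.55 and 1.28, and Mvd fell by 0.66 ± 0.12 (SE). Genes of lipid handling were mixed, with 13 of 22 higher and 5 lower (median 1.04). Plin2, the coat of lipid droplets, had 585, 630.4, 681 and 716 CPM in tumor and 181, 181, 223 and 174 CPM in spleen (log2 change 1.78 ± 0.10 SE, adjusted p = 1.33e-13), and Cd9, a tetraspanin, changed by 2.99 ± 0.14 (SE; adjusted p = 4.28e-15). Abca1, which exports cholesterol, rose by 4.60 ± 0.40 (SE), while the lysosomal lipase Lipa had 69.8, 70.8, 66.8 and 63.6 CPM in tumor and 202, 202, 199.8 and 203 CPM in spleen (log2 change -1.57 ± 0.08 SE, adjusted p = 8.76e-15). Scarb1, a lipoprotein receptor, fell by 1.78 ± 0.09 (SE).

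Macrophage genes rose in 17 of 21 cases and fell in 1 (median 1.61), or 14 and 1 with DESeq2. Maf, a transcription factor of macrophages, changed by 3.32 ± 0.18 (SE; adjusted p = 2.05e-13). Mrc1, the mannose receptor, had 550.1, 804, 516 and 764 CPM in tumor and 9.82, 12.4, 19.3 and 8.48 CPM in spleen (log2 change 5.70 ± 0.38 SE, adjusted p = 7.12e-11). C1qa, a chain of complement C1q, had 208, 159.7, 217 and 159.8 CPM in tumor and 2.26, 3.07, 44.02 and 3.07 CPM in spleen; spleen replicate 3 was the highest of its group, and the log2 change was 3.79 ± 0.69 (SE; adjusted p = 9.49e-05), or 6.04 without it. Macrophages of the same tumors had 1601 ± 135 CPM of C1qa (SD, n = 4). Adgre1, which encodes the macrophage marker F4/80, did not pass the test, at 237, 278, 254 and 258 CPM in tumor and 252, 315, 294 and 229 CPM in spleen (-0.09 ± 0.11 SE, adjusted p = 0.509).

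Genes of classical monocytes fell in 11 of 19 cases and rose in 5 (median -0.62). Besides Itga4, Hp, haptoglobin, had 158, 144, 143 and 171 CPM in tumor and 675, 812, 791 and 598 CPM in spleen (log2 change -2.22 ± 0.19 SE, adjusted p = 9.82e-10), and Vcan, versican, rose with 1283, 1971, 1289 and 1569 CPM in tumor and 265, 337, 302 and 190.3 CPM in spleen (2.48 ± 0.24 SE, adjusted p = 1.92e-08). Macrophages of LLC tumors had 122 ± 44.96 CPM of Vcan and 7.995 ± 2.07 CPM of Hp (SD, n = 4 each), and this difference from the tumor monocytes was not tested. Ccr2, Ms4a4c, Fn1 and S100a6 were the other members that rose. Genes of nonclassical monocytes fell in 12 of 15 cases and rose in 3, with a median of -2.81. Ace, the angiotensin-converting enzyme, had 91.6, 86.2, 96.2 and 125 CPM in tumor (chromosome 11, 105967948 to 105989964) and 1652, 1833, 1855 and 1829 CPM in spleen (log2 change -4.17 ± 0.27 SE, adjusted p = 2.84e-11). Spn, which encodes CD43, had 63.998, 55.4, 57.4 and 57.8 CPM in tumor and 619, 638, 624 and 604 CPM in spleen (log2 change -3.41 ± 0.10 SE, adjusted p = 8.45e-19). Both were lower in every tumor library. Adgre4, Treml4 and Eno3 fell as well, with log2 changes of -3.99 ± 0.17, -3.29 ± 0.17 and -3.505 ± 0.15 (SE), and Cx3cr1 fell by 1.63 ± 0.15 (SE). Nr4a1, which nonclassical monocytes need and which is also an immediate early gene, rose (1.10 ± 0.11 SE, adjusted p = 3.33e-09). The spleen label does not say how Ly6C was gated, and the part of nonclassical cells in the spleen sort was not tested.

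**Figure D3:**
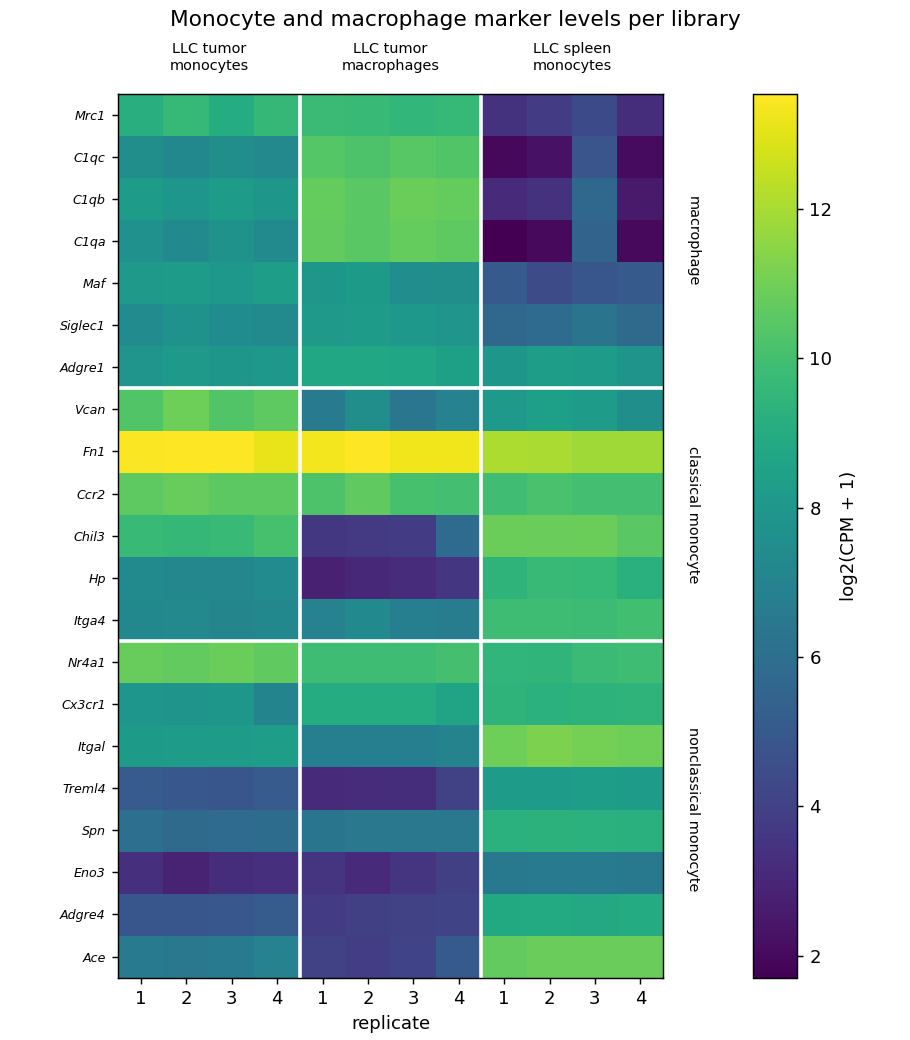
Levels of macrophage, classical monocyte and nonclassical monocyte genes as log2(CPM + 1), for members whose values the text gives and the other chains of C1q, with libraries in columns (4 LLC tumor monocyte, 4 LLC tumor macrophage and 4 LLC spleen monocyte libraries, from left to right) and genes in rows. Nonclassical genes such as Ace, Spn and Adgre4 are brighter in spleen than in both tumor groups, whereas C1qa, C1qb and C1qc are brightest in the tumor macrophages.

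Scavenger receptors and genes of alternative activation rose in 11 of 18 tested cases and fell in 3 (median 2.69). Msr1, scavenger receptor A, had 946, 1084, 912 and 981 CPM in tumor and 126, 139, 152 and 108 CPM in spleen (log2 change 2.90 ± 0.11 SE, adjusted p = 1.31e-16), and Il4ra, the interleukin 4 receptor chain, changed by 1.48 ± 0.10 (SE; adjusted p = 6.55e-12). Stab1 had 522, 550.3, 484 and 465 CPM in tumor and 2.71, 1.68, 10.8 and 1.67 CPM in spleen (log2 change 6.85 ± 0.63 SE, adjusted p = 1.44e-08, a change of 7.98 without spleen replicate 3). Clec10a, a galactose-binding lectin, fell (-1.38 ± 0.23 SE, adjusted p = 2.28e-05). Chil3, a chitinase-like protein, fell as well (-1.002 ± 0.40 SE, adjusted p = 0.0379), a call that was lost without any 1 of tumor replicates 1, 2 and 3 and spleen replicates 1, 2 and 3 (adjusted p = 0.068 to 0.0836), with DESeq2 (adjusted p = 0.0558) and with no filter on low counts (adjusted p = 0.0548). Irf4, a factor of alternative activation and of dendritic cells, fell, and had 7.22, 5.896, 7.19 and 7.495 CPM in tumor and 58.5, 62.6, 58.03 and 61.5 CPM in spleen (log2 change -3.12 ± 0.16 SE, adjusted p = 1.12e-14). Of the complement genes tested, 9 of 16 rose and 4 fell, or 6 and 4 with DESeq2. The 9 include C5ar1, whose product CD88 was gated in the tumor sort, so that member is only a check of the label. Cfp, properdin, had 653, 592, 659 and 713 CPM in tumor and 106, 105, 101 and 86.04 CPM in spleen (log2 change 2.72 ± 0.09 SE, adjusted p = 1.42e-17), C3ar1 changed by 5.83 ± 0.81 (SE; adjusted p = 3.88e-06, a change of 7.70 without spleen replicate 3), and C3 fell by 0.75 ± 0.12 (SE).

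Among 32 myeloid transcription factors, 18 rose and 10 fell. Besides Maf, Nfil3, Bhlhe40 and Id2 rose by 2.96, 2.87 and 2.36. Cebpb, a factor of emergency myelopoiesis and of Arg1 induction, had 1572, 1487, 1645 and 1599 CPM in tumor and 490.2, 70.5, 78.9 and 495 CPM in spleen. Spleen replicates 1 and 4 stood well above replicates 2 and 3, and the log2 change was 2.47 ± 0.45 (SE; adjusted p = 9.1e-05). Spi1, which encodes the myeloid master factor PU.1, did not pass the test (-0.07 ± 0.09 SE, adjusted p = 0.562). Lysosome and cathepsin genes rose in 20 of 28 cases and fell in 6, or 13 and 8 with library totals alone. Ctsl, cathepsin L, had 586, 679, 582 and 691 CPM in tumor and 33.5, 35.6, 55.7 and 30.3 CPM in spleen (log2 change 4.03 ± 0.26 SE, adjusted p = 2.23e-11), and Lgmn, legumain, changed by 2.54 ± 0.12 (SE; adjusted p = 3.24e-15). Psap, the precursor of the saposins, fell by 0.79 ± 0.08 (SE). Pattern recognition receptors rose in 13 of 23 cases and fell in 6 (median 1.18). Cd14 had 2582, 2671, 2828 and 2395 CPM in tumor and 65.5, 44.6, 136 and 48.6 CPM in spleen (log2 change 5.15 ± 0.37 SE, adjusted p = 3.55e-10), Clec4e, a sensor of mycobacterial lipid and dying cells, changed by 3.20 ± 0.19 (SE; adjusted p = 1.35e-12), and Tlr2 by 2.70 ± 0.12 (SE; adjusted p = 1.28e-15). The RNA-sensing Tlr7 fell by 1.79 ± 0.17 (SE), and Nod1 fell by 1.58 ± 0.11 (SE).

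Interferon-stimulated genes rose broadly but mostly by small amounts. Of 40 genes of the type I interferon response, 37 rose and none fell, with a median log2 change of 0.88. With library totals alone 32 were higher and 2 lower. Rsad2, viperin, had 1034, 914, 1041 and 1127 CPM in tumor and 65.2, 44.9, 153 and 56.6 CPM in spleen (log2 change 3.69 ± 0.30 SE, adjusted p = 1.42e-09). Cmpk2 and Mx2 changed by 1.90 ± 0.12 (SE; adjusted p = 6.26e-13) and 1.65 ± 0.11 (SE; adjusted p = 3.16e-12). Spleen replicate 3 was the highest spleen library for each of these 3 genes and lay below the tumor libraries. The other 3 genes of the list did not pass the test. Genes linked to interferon gamma rose in 11 of 19 cases and fell in 4 (median 1.28). Gbp7, a guanylate-binding protein, changed by 1.78 ± 0.13 (SE; adjusted p = 9.21e-12) and the feedback inhibitor Socs3 by 1.61 ± 0.13 (SE; adjusted p = 4.6e-11). Ifngr1, a chain of the interferon gamma receptor, fell by 0.98 ± 0.09 (SE).

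Antigen presentation did not rise with them. Of 10 genes of the MHC class II path, 1 rose and 7 fell (median -0.43), or 1 and 5 without spleen replicate 3. Ciita, the activator of class II transcription, had 47.7, 40.5, 42.5 and 40.5 CPM in tumor and 128, 169, 175 and 116 CPM in spleen (log2 change -1.78 ± 0.19 SE, adjusted p = 4.94e-08). H2-Aa, a class II chain, had 573, 547, 564 and 466 CPM in tumor and 802, 993, 1129.5 and 823 CPM in spleen (log2 change -0.80 ± 0.16 SE, adjusted p = 0.000182), and Cd74, the invariant chain, changed by -0.57 ± 0.15 (SE; adjusted p = 0.00167). Ctss, cathepsin S, which trims the invariant chain, was the member that rose (0.29 ± 0.07 SE, adjusted p = 0.00122), and with library totals alone it did not pass the test. MHC class I genes were near level, with 6 of 16 higher and 1 lower and a median of 0.10. With library totals alone the counts turned to 1 higher and 6 lower, so no direction is given for this list. H2-K1 and B2m did not pass the test (adjusted p = 0.637 and 0.322), and reads shared within the H2 family make its single genes uncertain.

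Checkpoint and costimulation genes, whose products adjust T cell responses, rose in 16 of 20 cases, while the other 4 did not pass the test (median 1.86). Cd274, which encodes PD-L1, had 257, 239, 232 and 341 CPM in tumor (chromosome 19, 29362107 to 29388095) and 34.8, 35.1, 68.8 and 36.01 CPM in spleen (log2 change 2.61 ± 0.23 SE, adjusted p = 4.37e-09). Cd80, a ligand of both CD28 and CTLA-4, had 122, 138, 136 and 128 CPM in tumor and 7.56, 9.78, 13.2 and 7.48 CPM in spleen (log2 change 3.76 ± 0.14 SE, adjusted p = 6.35e-17). Nt5e, which encodes CD73, the enzyme that makes adenosine, had 108, 122, 115 and 82.2 CPM in tumor and 0.452, 0.205, 1.44 and 0.735 CPM in spleen (log2 change 7.19 ± 0.41 SE, adjusted p = 7.34e-12, a change of 7.96 without spleen replicate 3), and Entpd1, CD39, which supplies it with substrate, changed by 2.40 ± 0.10 (SE; adjusted p = 3.83e-16). Pvr and Cd86 rose by 2.96 ± 0.11 and 2.30 ± 0.11 (SE).

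DNA replication and cell division genes were lower in tumor monocytes. Of 30 genes, 25 fell and 2 rose, with a median of -1.36. Mki67, the proliferation marker Ki-67, had 10.04, 11.4, 13.5 and 10.2 CPM in tumor and 54.3, 73.7, 80.3 and 69.9 CPM in spleen (log2 change -2.63 ± 0.33 SE, adjusted p = 9.1e-07). Mcm7, a subunit of the replicative helicase, had 9.07, 6.72, 6.89 and 7.21 CPM in tumor and 20.9, 26.1, 26.5 and 19.4 CPM in spleen (log2 change -1.65 ± 0.15 SE, adjusted p = 1.02e-09), and Aurkb, a mitotic kinase, changed by -2.13 ± 0.19 (SE; adjusted p = 4.39e-10). All tumor libraries were lower for these 3 genes. Cenpa, a centromeric histone, and Tyms, thymidylate synthase, were the members that rose (2.11 and 0.53).

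Several of the largest decreases were in genes of neutrophil granules. Ngp, neutrophilic granule protein, had 0.08803, 0.207, 0.681 and 0.0572 CPM in tumor (chromosome 9, 110419808 to 110423012) and 773, 1179, 1276 and 1076 CPM in spleen (log2 change -12.06 ± 0.71 SE, adjusted p = 1.74e-11, a change of -13.02 without tumor replicate 3). S100a9, a subunit of calprotectin, had 7.39, 11.6, 9.76 and 12.6 CPM in tumor and 983, 1494, 1593 and 1384 CPM in spleen (log2 change -7.03 ± 0.53 SE, adjusted p = 6.54e-10). Ltf, lactoferrin, had 0, 0.207, 0.984 and 0.286 CPM in tumor and 386, 577, 630.2 and 445 CPM in spleen (log2 change -10.44 ± 0.71 SE, adjusted p = 1.47e-10, a change of -11.39 without tumor replicate 3). Camp, the cathelicidin, had 1 count in the tumor libraries together and 23696 in the spleen libraries, a ratio with a 95% counting interval of 3298 to 725863. Elane and Mpo, enzymes of the primary granules, which are also made by young monocyte and neutrophil precursors, fell too, with log2 changes of -7.65 ± 0.60 and -6.69 ± 0.48 (SE). Of 15 neutrophil genes tested, 14 fell and 0 rose, and their summed level was 253 to 337 CPM in the tumor libraries and 3658 to 5710.2 CPM in the spleen libraries. The surface genes of mature neutrophils differed less: Ly6g had 1.23, 2.02, 1.74 and 1.602 CPM in tumor and 1.68, 3.27, 3.96 and 3.67 CPM in spleen (-0.92 ± 0.38 SE, adjusted p = 0.0392). That call was lost without any 1 of tumor replicates 1, 3 and 4 and spleen replicates 2, 3 and 4 (adjusted p = 0.0713 to 0.122), with a replicate block (adjusted p = 0.0588) and with no filter on low counts (adjusted p = 0.0582). Cxcr2 did not pass the test (-0.09 ± 0.21 SE, adjusted p = 0.731).

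Markers of lymphocytes and dendritic cells were also higher in spleen. Gzma, granzyme A, had 0.08803, 0, 0.303 and 0.114 CPM in tumor and 23.97, 27.7, 15.7 and 21.9 CPM in spleen (log2 change -7.52 ± 0.53 SE, adjusted p = 1.18e-11, a change of -8.35 without tumor replicate 3), and Nkg7, a protein of cytotoxic granules, had 0, 0.0517, 0 and 0.0572 CPM in tumor and 6.53, 7.69, 6.39 and 5.88 CPM in spleen. Nkg7 rests on 2 counts in the tumor libraries together and 532 in the spleen libraries, a ratio with a 95% counting interval of 56.8 to 1708. The list of T and NK cell genes had 4.71 to 5.28 CPM in tumor and 49.1 to 74.05 CPM in spleen, with 10 of 12 tested genes lower. B cell genes summed to 2.63 to 5.28 CPM in tumor and 15.3 to 21.7 CPM in spleen, and Jchain, the joining chain of antibodies, had 0 counts in tumor and was at least 1228-fold lower there. Flt3, a receptor of dendritic cells and their precursors, had 1.67, 2.53, 1.06 and 1.83 CPM in tumor and 51.9, 44.6, 46.3 and 44.4 CPM in spleen (log2 change -4.68 ± 0.22 SE, adjusted p = 4.5e-15); of 12 dendritic cell genes 7 fell and 1 rose. Genes of red pulp macrophages, which are resident in spleen, summed to 664 to 1107 CPM in tumor and 209 to 269 CPM in spleen, and 2 of 8 tested rose while 3 fell. The sum was mostly Hmox1, heme oxygenase 1, and Siglec1, a sialic acid receptor, which rose by 2.09 ± 0.18 and 1.61 ± 0.16 (SE). Spic, the factor that defines these cells, fell by 3.60 ± 0.29 (SE), Cd5l was near the floor in both groups, and Vcam1 did not pass the test (-0.30 ± 0.30 SE, adjusted p = 0.389). Fibroblast genes summed to 16.1 to 25.5 CPM in tumor and 10.7 to 17.1 CPM in spleen, fat cell genes to 2.02 to 15.4 CPM in tumor and 8.18 to 12.5 CPM in spleen, and epithelial genes to 42.9 to 67.97 CPM in tumor and 6.14 to 6.88 CPM in spleen. The epithelial sum was mostly Cdh1, E-cadherin, at 45.2, 39.9, 41.6 and 63.3 CPM in tumor and 0.8399, 0.777, 0.948 and 1.07 CPM in spleen, whereas the keratins Krt14 and Krt19 were at 0 in all 8 libraries. Of the 5 epithelial genes tested, 3 rose and 1 fell. Besides Cdh1, the keratins Krt8 and Krt18 rose, at 0.621 to 1.21 and 0.776 to 1.32 CPM in tumor, against 0 to 0.164 and 0.124 to 0.401 CPM in spleen, and Krt7 fell by 2.12 ± 0.29 (SE). The part of other cell types in the differences between the groups was not tested.

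**Figure D4:**
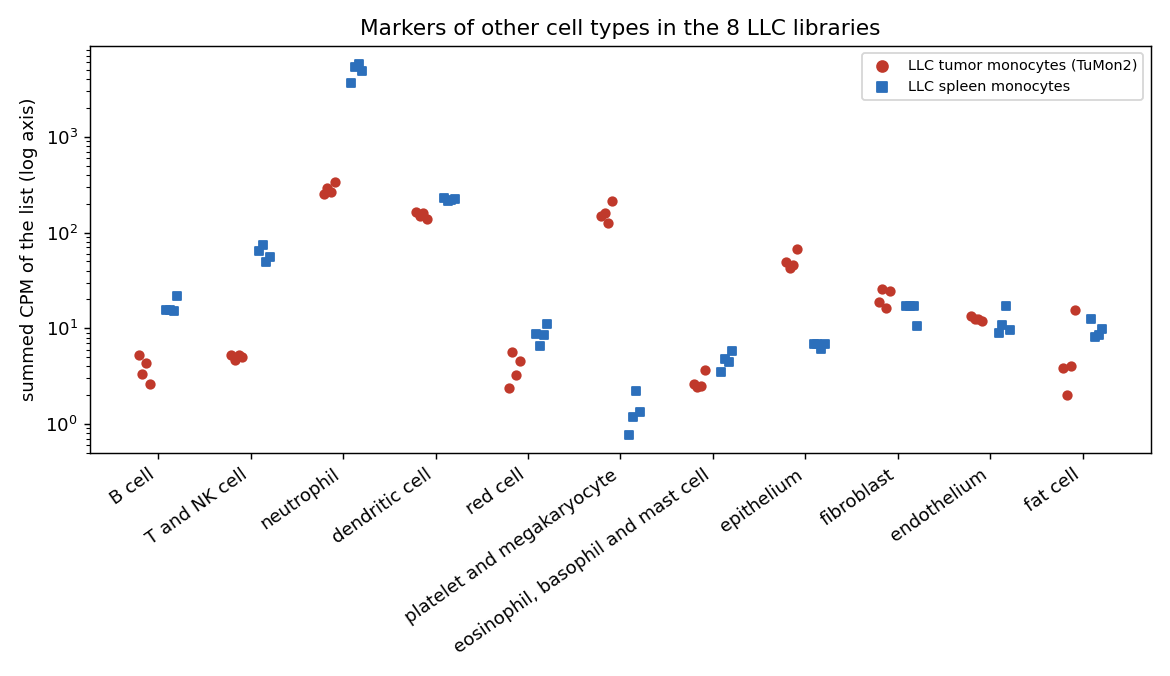
Summed CPM of the marker genes of other cell types in each of the 4 LLC tumor monocyte libraries and the 4 LLC spleen monocyte libraries, on a log axis; each point is a library. The neutrophil sum was 253 to 337 CPM in tumor and 3658 to 5710.2 CPM in spleen, and the platelet sum, which is almost only Pf4 and Ppbp, was 127 to 211 CPM in tumor and 0.775 to 2.23 CPM in spleen.

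The change between tumor and spleen was then set against that of the MC38 tumor, whose monocytes were sorted as Sca1+. Tumor line and Sca1 gate coincide there and cannot be told apart. In MC38, 70.1% of the genes were called between tumor and spleen monocytes, with 33.5% higher and 36.6% lower, and of the called genes 47.8% were higher, or 29.1% with library totals alone. Of the 3775 genes that rose in LLC, 2786 also rose in MC38, which is 73.8% of the LLC genes and 62.9% of the MC38 genes, and 3024 genes fell in both (67.4% and 62.6%). The difference between the changes, LLC minus MC38, was called for 42.9% of the genes, with 19.1% higher and 23.8% lower. Replicates 1, 2 and 3 of the MC38 spleen monocytes held transcripts of fat cells. The overlaps with MC38 given above rest on all 4 MC38 spleen libraries and were not counted without these 3. Each difference is also given without these 3 libraries, which leaves 1 MC38 spleen library that is taken to vary like the other groups. Fabp4, a fatty acid carrier of fat cells, had 1564, 1478, 2781 and 18.4 CPM in the 4 MC38 spleen libraries, against 10.3, 7.94, 8.24 and 9.49 CPM in the LLC spleen libraries. The 6 largest positive differences were in Efemp1, Dpt, Nid1, Slco2b1, Ppp1r1a and Serpina3n, and among these only Nid1 passed without the 3 libraries (5.17 ± 1.71 SE, adjusted p = 0.0272). Without them 26.1% of 13802 genes were called, 11.9% higher and 14.2% lower.

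Interferon genes differed between the tumors. All 40 type I interferon genes had a smaller change in LLC, with 36 of 40 called without the 3 libraries, and the median change was 0.88 in LLC and 2.003 in MC38. MHC class II turned round: 7 of 10 genes fell in LLC, all 10 rose in MC38, and the difference was called for 10 genes, or 9 without the 3 libraries. H2-Ab1, a class II chain, had 604, 567, 609.9 and 517 CPM in LLC tumor and 771, 776, 908 and 775 CPM in LLC spleen, and 3076 ± 491 CPM in MC38 tumor and 546 ± 91.8 CPM in MC38 spleen (SD, n = 4 each). The difference was -2.98 ± 0.23 (SE; adjusted p = 2.01e-09), or -2.70 ± 0.35 (SE; adjusted p = 2.13e-05) without the 3 libraries. DNA replication genes fell in 25 of 30 cases in LLC and rose in 20 in MC38, and 27 differences were called lower in LLC, 23 without the 3 libraries. The rise in MC38 rested on those 3 libraries. Without them 7 of the genes were higher in MC38 tumor monocytes and 5 lower, with a median of 0.079 in place of 0.78, where 53.1% of all 13802 genes were called, 27.4% higher and 25.8% lower.

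Genes of cholesterol, low oxygen and glycolysis had the larger change in LLC. Cholesterol genes rose in 19 of 24 cases in LLC and in 5 in MC38, where 14 fell, or 3 and 12 without the 3 libraries; 19 differences were higher in LLC, or 17 without the 3 libraries. For Sqle the difference was 2.48 ± 0.13 (SE; adjusted p = 8.36e-13), or 2.69 ± 0.16 (SE; adjusted p = 1.42e-11) without them. Hypoxia genes had 15 of 21 differences higher in LLC and glycolysis genes 16 of 21, or 11 and 10 without the 3 libraries. Hk2 had a difference of 0.69 ± 0.09 (SE; adjusted p = 1.19e-06), and Egln3 of 2.36 ± 0.31 (SE; adjusted p = 3.85e-06), or 0.73 and 1.99 without them. Arg1 rose in both tumors, by 9.06 in LLC and 6.63 in MC38, and the difference did not pass the test (2.43 ± 1.06 SE, adjusted p = 0.0729), nor without the 3 libraries (1.63 ± 1.61 SE, adjusted p = 0.505). It passed without LLC spleen replicate 3 (4.67, adjusted p = 0.00129) and without MC38 spleen replicate 2 (2.84, adjusted p = 0.0388). Fn1 went in opposite directions, with 11273, 11764, 11942 and 9094 CPM in LLC tumor and 4283, 4164, 3681 and 3762 CPM in LLC spleen, but 491, 406, 483 and 527 CPM in MC38 tumor and 2487, 2814, 2424 and 3101 CPM in MC38 spleen. Its difference was 3.98 ± 0.16 (SE; adjusted p = 2.52e-14), or 4.18 ± 0.18 (SE; adjusted p = 8.76e-13) without the 3 libraries. Thbd, thrombomodulin, which turns thrombin against clotting, rose in LLC by 0.85 and fell in MC38 (-1.41), a difference of 2.26 ± 0.15 (SE; adjusted p = 4.37e-11), or 2.07 without them.

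**Figure D5:**
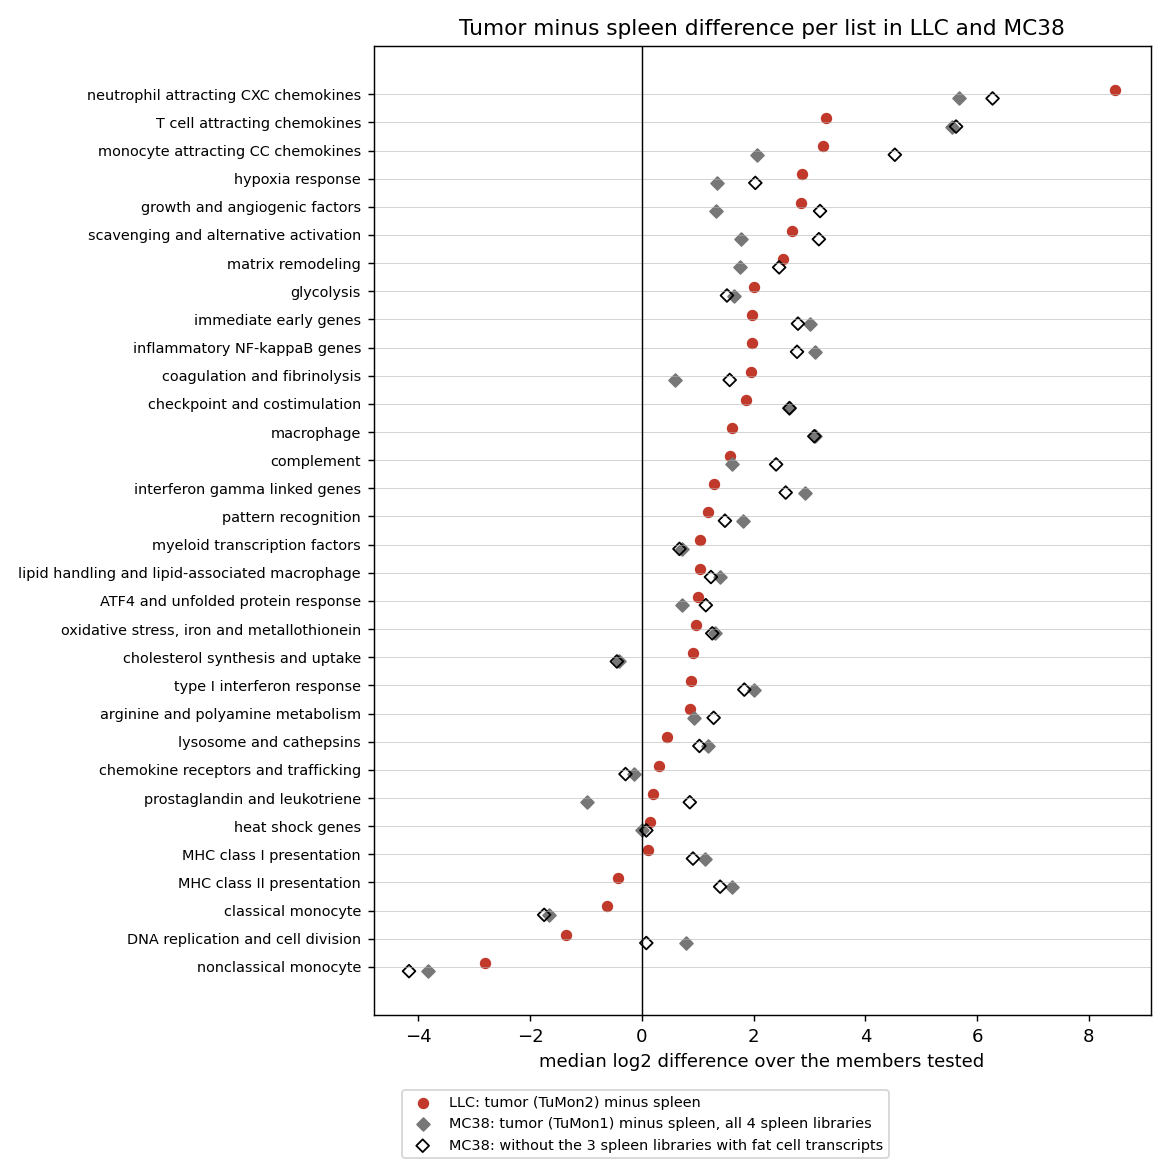
Median log2 change between tumor and spleen monocytes of the tested members of each list, in LLC (4 against 4 libraries), in MC38 (4 against 4) and in MC38 with only the spleen library that lacks fat cell transcripts (4 against 1). The LLC median lies below both MC38 medians for the interferon, MHC and replication lists and above both for the hypoxia, coagulation and cholesterol lists.

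Cultured bone marrow monocytes given LLC supernatant were read side by side, from libraries that share no sample with those from mice. Of the 12603 genes tested, 68.4% were called between supernatant and control cells, 32.3% higher and 36.1% lower. Of the 3579 genes that rose in LLC tumor monocytes and were tested in culture, 1890 also rose there, which is 52.8% of them and 47.8% of the genes that rose in culture, and 758 fell. Arg1 had 1409 ± 39.8 CPM with supernatant (SD, n = 3) and 0.787 ± 0.599 CPM in control cells (n = 4), a log2 change of 10.93 ± 0.32 (SE; adjusted p = 2.18e-09). C5ar1, by whose product the supernatant cells were labelled, had 626 ± 21.8 CPM with supernatant and 13.8 ± 1.82 CPM in control cells. Hypoxia and glycolysis genes rose in 19 of 21 and 18 of 21 cases, cholesterol genes in 22 of 23, and macrophage genes in 19 of 21. DNA replication genes fell in 29 of 30. Immediate early genes parted from the tumor, with 12 of 22 lower and 2 higher in culture; Fosl2, at 3.23 in LLC tumor monocytes, changed by -1.82 ± 0.08 (SE; adjusted p = 8.38e-09). Ly6c2 had 13.9 ± 1.47 CPM with supernatant and 1794 ± 182 CPM in control cells (log2 change -7.02 ± 0.14 SE, adjusted p = 6.91e-11). At this level the transcript did not bear out the Ly6C+ label of the supernatant cells. Fn1 fell in culture (-5.05 ± 1.06 SE, adjusted p = 0.00317), and Il1b did not pass the test there (-0.34 ± 0.30 SE, adjusted p = 0.341).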

How the data were processed

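Messenger RNA was measured in sorted cells, with stranded libraries per the labels' protocols. The authors deposited estimated counts per gene under Entrez gene numbers, and 14.62% of the deposited values were not whole. CASAVA 1.8.2 and the builds GRCm38 and mm10 are named in the submitters' processing notes, while an aligner or counter is not given in the sources used here. Values were rounded, which moved a library total by at most 0.0003561%. RefSeq symbols matched 24375 of 24475 identifiers, and the 100 unmatched ones held 1.659% of the counts. The 8 libraries held 13198843 to 23818347 counts, and intervals cover counting error only.

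Groups followed the titles. One fit in edgeR 4.0.16 (R 4.3.3, limma 3.58.1) covered the 24 libraries from mice and another the 10 cultured ones. Each used scaling by the trimmed mean of M values, filterByExpr and the robust quasi-likelihood F-test with Benjamini-Hochberg adjustment, so that the adjusted p-values named here are edgeR's. The steps were run on simulated data in which few genes changed, evenly in both directions. Such data cannot check the scaling for a comparison in which most genes were called. Counts of 13200 and 12603 genes passed the filter. The SE is the size of the log2 change divided by the square root of F. CPM and sums were computed with Python 3.11.15, pandas 2.3.3, NumPy 2.4.6 and SciPy 1.17.1, figures with matplotlib 3.10.9. DESeq2 1.42.0, other scalings, other filters, a replicate block and leaving out libraries were alternatives. Since replicate pairs differed beyond sampling noise (chi-square per degree of freedom at least 4.667), none was merged.

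The members and gene lists were chosen with earlier results of these data known. Named were the 15 largest called changes in each direction whose groups did not overlap and whose higher group averaged 10 CPM or more, up to 5 called members per list (those of smallest adjusted p), and 6 genes in each direction for the difference between tumors, passing over predicted genes. Which of these are described, and which further list members, was chosen after their values were seen; a few of those it picks are left out of the text. Motifs were searched by letters on both strands.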

Additional observations from a re-analysis of the deposited data

Results flagged for a closer look

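In 396 groups of 4 libraries examined (each gene named for LLC, in tumor and in spleen), 51 held 1 library far from the other 3. Chance gives about 1 group in 20 only for independent groups with normally spread values. These genes share their libraries, and a group with counts in 1 library alone, as for Flrt2, Cxcl1 and Gja1 in spleen, is always flagged. The 51 are therefore a description and not a test. In 31 of the 51 that library was spleen replicate 3, which was the highest spleen library each time. Levels in spleen replicate 3 that stood apart were Abca1 at 16.7, Arg1 at 8.903, Arg2 at 4.04, Azin1 at 79.3, C1qa at 44.02, C3ar1 at 39.7, Ccl2 at 25.5 and Ccl7 at 16.3 CPM. It also held Cd274 at 68.8, Clec4e at 76.4, Cmpk2 at 90.3, Cxcl1 at 0.453, Cxcl10 at 129.9, Cxcl16 at 50.8, Flrt2 at 0.371 and Gja1 at 0.124 CPM. Further values there were Hilpda at 8.78, Il1b at 409, Ly6a at 69.99, Mmp12 at 3.75, Mmp14 at 31.6, Mx2 at 32.7, Nos2 at 4.41 and Odc1 at 30.7 CPM. The others were Pdpn at 2.27, Pf4 at 0.989, Plin2 at 223, Raet1d at 0.412, Spp1 at 19.9, Stab1 at 10.8 and Tlr2 at 139 CPM. Where leaving this library out moved a change by over 1.5-fold, the value without it is given with the result. In other spleen libraries, single values stood apart for Ace at 1652 CPM in replicate 1, Chil3 at 1458 CPM in replicate 4, Fth1 at 856 CPM in replicate 2, Krt8 at 0.164 CPM in replicate 2, Nfkb2 at 231 CPM in replicate 1 and Tlr7 at 329 CPM in replicate 2. Among tumor monocytes, they did for Abca1 at 342 CPM in replicate 2, Adgre4 at 35.02 CPM in replicate 4, Ccl24 at 143 CPM in replicate 4, Cx3cr1 at 129 CPM in replicate 4, Cxcl10 at 591 CPM in replicate 2, F10 at 962 CPM in replicate 4 and Ifngr1 at 409 CPM in replicate 2. The same held for Itga2b at 0.672 CPM in replicate 2, Itga5 at 399 CPM in replicate 4, Ly6a at 29.5 CPM in replicate 2, Mvd at 22.6 CPM in replicate 1, Psap at 6683 CPM in replicate 4, Pvr at 130.4 CPM in replicate 3 and Spi1 at 430.4 CPM in replicate 2.

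The change between tumor and spleen monocytes differed between LLC and MC38, by the test of the difference itself, for Egln3 (2.36), Fn1 (3.98), H2-Ab1 (-2.98), Hk2 (0.69), Nid1 (13.22), Sqle (2.48) and Thbd (2.26), given as log2 LLC change minus MC38 change. The value of Nid1 stood at 5.17 without the 3 MC38 spleen libraries that held fat cell transcripts.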

How the results depend on the processing

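Counts of called genes for LLC tumor over spleen monocytes stayed within 1.5 times the reported 8263 under every alternative run, from 7321 with a filter of 5 CPM in 3 libraries to 9050 with library totals, and DESeq2 called 8401. List counts moved more with DESeq2. Fewer members rose for CC chemokines (7 of 11), macrophage (14 of 21), complement (6 of 16) and NF-kappaB genes (16 of 24). More rose for arginine and polyamine (14 of 17) and scavenging genes (13 of 18). Members without an adjusted p in DESeq2 count there as not called, and the checks of single genes passed over them. Leaving out 1 library gave 7691 to 7948 calls in LLC, 8854 to 10234 in MC38, 5115 to 6578 for the difference between tumors and 7619 to 9243 in culture. For that difference, leaving out MC38 spleen replicates 1, 2 and 3 gave 3599 calls, of which 2865 were shared with the reported 5661 in the same direction and 30 had turned. Of the called differences 44.5% were higher in LLC, against 55.7% with no filter on low counts and 53.6% in DESeq2. The replicate numbers do not mark shared animals in the labels, and same-numbered tumor and spleen libraries correlated by only 0.015, 0.091, -0.016 and -0.038 across genes. With a replicate block 8155 genes were called in LLC, 9108 in MC38, 5436 for the difference and 7919 in culture. Among genes named without a call, some turned sign: Car9 was at -0.048 with library totals, and Cxcr2 ranged over -0.226 to 0.0376 when 1 library was left out, with 0.0376 without spleen replicate 4; the cause was not tested. Genes reported as not passing that passed elsewhere were Adgre1, B2m, H2-K1 and Spi1, lower with library totals (adjusted p = 0.00249, 3.94e-06, 0.00133 and 0.00108), B2m with upper quartile factors (adjusted p = 0.0234) and Ccl5 in a fit of the 8 libraries alone (adjusted p = 0.0172). List counts under each scaling and with DESeq2, the results without spleen replicate 3 for single lists and the genes named for the difference without the 3 libraries were chosen after seeing the data. With library totals the median log2 change of all genes moved from -0.05 to -0.33. Changes of about the size of that shift depend on the scaling chosen.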

Other observations

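Macrophages of the LLC tumors, sorted from the same tumor line, were read beside the tumor and spleen monocytes with no test. Ly6c2 had 17.9 ± 5.73 CPM in LLC tumor macrophages, against 920.2 ± 32.3 CPM in tumor monocytes and 675 ± 96.04 CPM in spleen monocytes (SD, n = 4 each here and below). Arg1 had 1773 ± 625 CPM in tumor macrophages, 1544 ± 556 CPM in tumor monocytes and 2.71 ± 4.14 CPM in spleen monocytes. Thbs1, thrombospondin 1, had 5045 ± 859 CPM in tumor macrophages, 29677 ± 2871 CPM in tumor monocytes and 328 ± 309 CPM in spleen monocytes. The macrophage values of Ly6c2 and Thbs1 lay outside the range of the tumor monocytes. Mki67, the proliferation marker, had 86.1 ± 19.3 CPM in tumor macrophages, 11.3 ± 1.58 CPM in tumor monocytes and 69.6 ± 11.1 CPM in spleen monocytes. H2-Aa, an MHC class II chain, had 1735 ± 412 CPM in tumor macrophages, 538 ± 48.8 CPM in tumor monocytes and 937 ± 155 CPM in spleen monocytes. Cdh1, E-cadherin, which made up most of the epithelial marker sum, had 104 ± 24.1 CPM in tumor macrophages, 47.5 ± 10.8 CPM in tumor monocytes and 0.909 ± 0.128 CPM in spleen monocytes.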
